A study of Mus musculus with 8 samples.

Results

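The genes described here are 10 components of Toll-like receptor sensing, out of 30702 genes that the arrays name, measured in microglia of conditional knockout and control mice. They were taken as a fixed list of symbols, and each had 1 probe set. The surface arm holds the receptor genes Tlr1, Tlr2 and Tlr4 and the co-receptor gene Cd14. The endosomal arm holds the receptor genes Tlr3, Tlr7, Tlr9 and Tlr13 and the chaperone gene Unc93b1. Myd88, the adaptor that both arms use, stands apart. All 10 passed the filter on dim genes, which kept 18234 genes, and each was above the median named probe set on 8 of 8 arrays.

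The mice were of the strain labelled C57Black/6J. The knockout genotype, icKO, is a conditional deletion directed at oligodendroglia, as the series title describes it, and the control genotype is labelled FL, or F/F in 1 group. These labels were taken as floxed mice without the deletion. Each genotype was profiled in 4 states on 1 array per state. The states were EAE p50, EAE with iguratimod (EAE IGU), EAE and naive. EAE is experimental autoimmune encephalomyelitis, an autoimmune disease model of multiple sclerosis, iguratimod is an anti-inflammatory antirheumatic drug, and the labels do not explain the mark p50. The Cre driver, the age and sex of the mice, the drug dose and the number of mice behind an array are not given in the sources used here. The RNA came from microglia, whereas the deletion is directed at another cell type. The genotype labels were not checked against expression.

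Toll-like receptors are membrane proteins that recognise conserved parts of microbes, and microglia, the macrophages that reside in brain and spinal cord, carry many of them. Receptors at the cell surface bind lipids and lipoproteins of the microbial envelope, while endosomal receptors bind nucleic acids and reach the endosome only with the help of Unc93b1. Nearly all of them signal through Myd88 to NF-kB and interferon regulatory factors. Tlr3 is the exception and uses the adaptor encoded by Ticam1.

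Levels are given throughout as log2(intensity + 16), and differences are on the same scale. Median intensity per array was between 243 and 269. Of the microglia markers, 9 of 10 were measured, all 9 passed the filter, and their median level was between 12.53 and 13.78 on the 8 arrays. Of the neuronal markers 0 of 4 passed the filter, and of the oligodendrocyte markers 1 of 5. The EAE p50 arrays differed from the other 6 in sex-linked genes. Xist, expressed from the inactive X chromosome of females, lay at 16.64 and 15.90 on the EAE p50 arrays, against 7.71 to 8.30 on the others. Eif2s3y, a gene of the Y chromosome, lay at 7.40 and 7.29, against 9.44 to 10.17. In any comparison with EAE p50, sex and the p50 condition cannot be told apart.

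**Figure D1:**
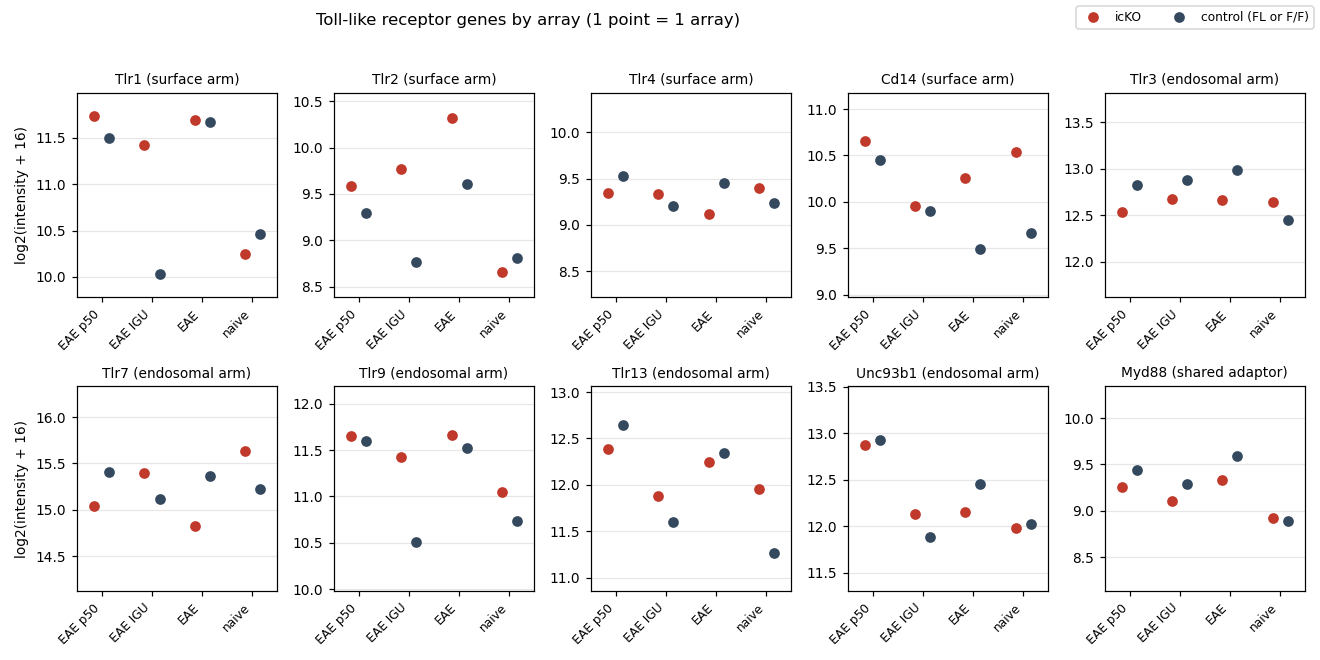
Level of each gene, as log2(intensity + 16) on a vertical axis spanning the same number of log2 units in every panel, by state on the horizontal axis. Each point is 1 array, icKO in red and control in dark blue. Tlr1, Tlr2 and Tlr9 show the control EAE IGU array below the FL naive array, at 10.03, 8.77 and 10.51, and Tlr4 has a range of 0.41 over all 8 arrays.

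The first question was how the genes differed between EAE and naive microglia. Tlr1, Tlr2, Tlr9, Tlr13 and Myd88 were higher on both EAE arrays than on both naive arrays, with average differences between 0.55 and 1.32. Tlr3 and Unc93b1 were also above, by less, and Tlr4, Cd14 and Tlr7 were not. So 7 of 10 genes had both EAE arrays above both naive arrays, against 29.5% of all genes tested, and 0 of 10 had both below, against 22.5%. After a further quantile normalization the 2 states did not overlap for 5 of 10, counted in either direction. None of the 10 passed the test over all genes, an additive limma model of state and genotype at an adjusted p of 0.05, which called 3.77% of genes. At an unadjusted p under 0.05 it called 5 of the 10, against 19.2% of all genes.

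Tlr1 encodes the receptor that pairs with Tlr2 to bind triacylated bacterial lipoproteins. Its level was 11.69 in icKO EAE and 11.67 in FL EAE, against 10.25 in icKO naive and 10.46 in FL naive. The EAE arrays lay within 0.02 of each other and far above both naive arrays. The average difference was 1.32 ± 0.37 (SE), a 2.50-fold higher level in EAE, with a limma adjusted p of 0.133. The spread in that model comes from all 4 states, including the EAE IGU pair, on which Tlr1 differed between genotypes by 1.39. Without both EAE IGU arrays the difference was again 1.32, and Tlr1 passed with a limma adjusted p of 0.0296. Leaving out either one of them gives in effect the same fit, since the array that stays is fitted exactly by its state. Each of these settings takes the genotype gap of 1.39 out of the spread. Under all other settings tried Tlr1 did not pass, with limma adjusted p-values between 0.089 and 0.402 (0.216 without both EAE p50 arrays).

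Tlr2, the partner of Tlr1 and the main sensor of lipoproteins, lay at 10.32 in icKO EAE and 9.61 in FL EAE, against 8.66 in icKO naive and 8.81 in FL naive. Both EAE arrays were above both naive arrays, and icKO EAE was the highest of the 8. The difference was 1.23 ± 0.28, or 2.34-fold, with the lowest adjusted p of the 10 genes in this comparison (limma, 0.0786). Of all genes tested, 7.73% in control and 5.73% in icKO differed at least 2-fold between EAE and naive. Tlr1 and Tlr2 passed that fold in icKO, where they differed by 1.44 and 1.65. In control Tlr1 (1.21) and Tlr13 (1.07) did.

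Myd88 lay at 9.33 in icKO EAE and 9.59 in FL EAE, against 8.92 in icKO naive and 8.89 in FL naive, a difference of 0.55 ± 0.13 (limma adjusted p = 0.0833). The naive arrays lay within 0.03 of each other, and the difference was 0.41 in icKO and 0.70 in control. Tlr9, the receptor of unmethylated CpG DNA, lay at 11.66 in icKO EAE and 11.52 in FL EAE, against 11.05 in icKO naive and 10.73 in FL naive. Its difference was 0.70 ± 0.23 (limma adjusted p = 0.173). Tlr13, which in mice recognises bacterial ribosomal RNA, lay at 12.25 in icKO EAE and 12.34 in FL EAE, against 11.96 in icKO naive and 11.27 in FL naive. Its average difference of 0.68 ± 0.24 (limma adjusted p = 0.203) was made up of 0.30 in icKO and 1.07 in control, the FL naive array being the lowest of the 8.

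The remaining 5 genes differed less, or in opposite ways in the genotypes. Tlr4, the receptor of lipopolysaccharide, lay at 9.12 in icKO EAE and 9.45 in FL EAE, against 9.40 in icKO naive and 9.24 in FL naive. Its order was opposite in the genotypes and the average difference was -0.03 ± 0.17. Cd14, which hands lipopolysaccharide to the Tlr4 complex, lay at 10.26 in icKO EAE and 9.49 in FL EAE, against 10.54 in icKO naive and 9.66 in FL naive. It was lower in EAE by a small amount in both genotypes, at -0.23 ± 0.24. Tlr7, a receptor of single-stranded RNA, lay at 14.83 in icKO EAE and 15.36 in FL EAE, against 15.63 in icKO naive and 15.22 in FL naive. The icKO pair spanned the whole range of this gene over the 8 arrays, with the naive array highest and the EAE array lowest, while the control pair differed by 0.14 the other way.

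Tlr3, the receptor of double-stranded RNA, lay at 12.66 in icKO EAE and 12.99 in FL EAE, against 12.64 in icKO naive and 12.45 in FL naive, and the icKO arrays differed by only 0.02. Unc93b1 lay at 12.15 in icKO EAE and 12.45 in FL EAE, against 11.98 in icKO naive and 12.02 in FL naive. Their average differences were 0.28 ± 0.16 and 0.30 ± 0.16. Over all 8 arrays, Tlr1 and Tlr2 had ranges of 1.70 and 1.65, which put them at percentiles 93.8 and 93.2 of all genes tested. Tlr4 (0.41) and Tlr3 (0.53) had ranges under the median of 0.66 for all genes tested.

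Neither arm differed as a block. In EAE against naive, 2 of 4 surface genes and 4 of 5 endosomal genes were higher on average. The surface median was 0.60, with a spread from -0.23 for Cd14 to 1.32 for Tlr1. The endosomal median was 0.30, with a spread from -0.33 for Tlr7 to 0.70 for Tlr9, and the median of all genes tested was 0.01. Within the surface arm the lipoprotein receptors Tlr1 and Tlr2 had larger differences than Tlr4 and Cd14, and within the endosomal arm Tlr9 and Tlr13 had larger ones than Tlr7 and Tlr3. This ordering describes the values and was not put to a test.

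**Figure D2:**
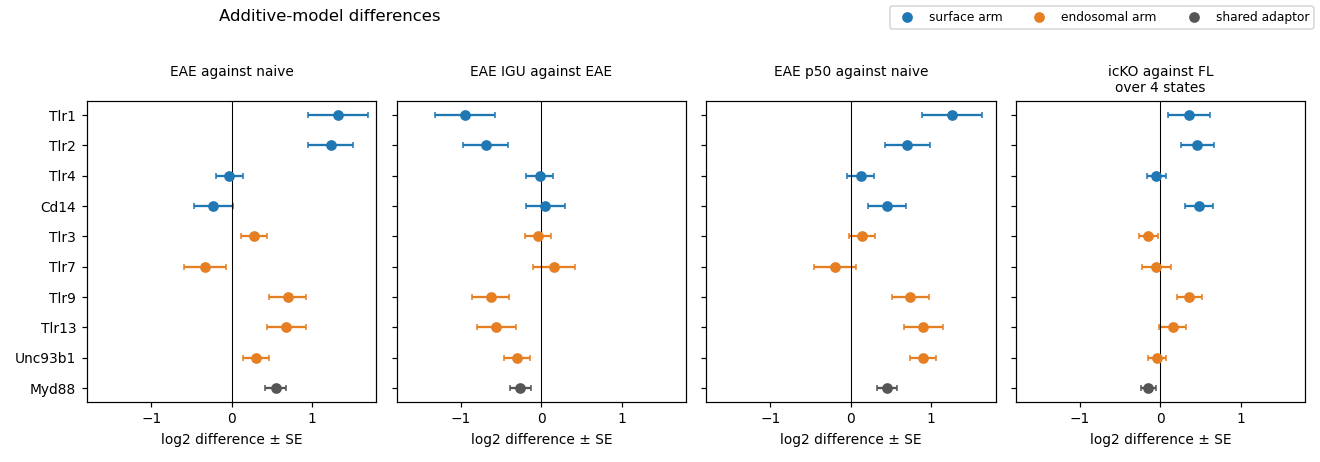
Average log2 difference with its standard error for each gene in 4 comparisons of the additive limma model, on the horizontal axis, with the surface arm in blue, the endosomal arm in orange and Myd88 in grey. In EAE against naive the surface arm spans -0.23 to 1.32 and the endosomal arm -0.33 to 0.70, so the arms overlap.

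The promoters of Tlr1, Tlr2, Tlr9, Tlr13 and Myd88, the 5 genes with the largest average differences between EAE and naive, are shown so that their letters can be compared. That of Tlr3, which was also above naive on both EAE arrays but by less, is shown with them. RefSeq windows of assembly GRCm38.p6 were read for 6 of the 10 genes, and each runs from 250 bases before to 50 bases after the annotated start. The windows are chr5:64933509-64933808 on the minus strand for Tlr1 (the more upstream of its 2 annotated starts), chr3:83841559-83841858 on the minus strand for Tlr2, chr9:106222348-106222647 on the plus strand for Tlr9, chrX:106143025-106143324 on the plus strand for Tlr13, chr9:119339969-119340268 on the minus strand for Myd88 and chr8:45410331-45410630 on the minus strand for Tlr3. Capitals mark matches on either strand to the kappa B motif, the interferon element GAAANNGAA, the PU.1 element GAGGAAGT or the AP-1 element TGANTCA. The interferon element was shortened by 1 base at its end after the matches to a longer form had been seen, which left its match in Myd88 in place and made the motif more common among all windows.
Tlr1: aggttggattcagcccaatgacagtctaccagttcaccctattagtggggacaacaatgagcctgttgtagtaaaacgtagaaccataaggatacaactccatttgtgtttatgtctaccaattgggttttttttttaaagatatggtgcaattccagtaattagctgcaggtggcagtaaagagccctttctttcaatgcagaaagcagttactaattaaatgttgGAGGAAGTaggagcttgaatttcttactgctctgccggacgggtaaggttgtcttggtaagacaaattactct
Tlr2: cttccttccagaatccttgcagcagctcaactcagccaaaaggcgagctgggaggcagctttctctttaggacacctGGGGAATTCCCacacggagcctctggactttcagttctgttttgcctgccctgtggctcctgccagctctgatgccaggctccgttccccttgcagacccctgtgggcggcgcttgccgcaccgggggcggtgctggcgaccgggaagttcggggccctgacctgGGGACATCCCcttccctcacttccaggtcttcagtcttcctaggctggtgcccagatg
Tlr9: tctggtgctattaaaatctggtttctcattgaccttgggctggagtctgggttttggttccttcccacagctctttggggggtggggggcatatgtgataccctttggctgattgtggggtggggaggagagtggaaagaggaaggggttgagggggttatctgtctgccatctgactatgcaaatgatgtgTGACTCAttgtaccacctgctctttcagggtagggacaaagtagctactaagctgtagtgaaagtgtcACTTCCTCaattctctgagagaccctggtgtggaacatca
Tlr13: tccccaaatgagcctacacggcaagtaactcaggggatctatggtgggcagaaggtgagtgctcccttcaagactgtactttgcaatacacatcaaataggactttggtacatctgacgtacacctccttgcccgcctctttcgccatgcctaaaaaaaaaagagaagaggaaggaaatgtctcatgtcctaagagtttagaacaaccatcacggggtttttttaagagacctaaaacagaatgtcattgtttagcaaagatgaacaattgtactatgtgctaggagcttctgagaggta
Myd88: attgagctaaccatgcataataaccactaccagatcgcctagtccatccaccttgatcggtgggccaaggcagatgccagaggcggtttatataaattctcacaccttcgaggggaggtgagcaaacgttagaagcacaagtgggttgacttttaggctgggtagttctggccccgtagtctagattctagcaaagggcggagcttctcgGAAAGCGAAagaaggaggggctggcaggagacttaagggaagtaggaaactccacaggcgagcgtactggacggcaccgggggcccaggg
Tlr3: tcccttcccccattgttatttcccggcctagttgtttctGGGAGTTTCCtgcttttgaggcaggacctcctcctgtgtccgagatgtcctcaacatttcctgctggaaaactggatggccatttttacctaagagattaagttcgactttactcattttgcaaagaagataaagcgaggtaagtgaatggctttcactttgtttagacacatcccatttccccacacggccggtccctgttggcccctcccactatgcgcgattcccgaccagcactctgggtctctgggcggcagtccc
Tlr2 held 3 kappa B matches, of which 2 overlap in 1 stretch, and Tlr3 held 1. That motif occurred in 8.46% of 32851 windows of this length. Myd88 held 1 interferon element (8.56% of windows), Tlr1 held 1 PU.1 element (3.20%), and Tlr9 held 1 PU.1 element and 1 AP-1 element (7.81%). The other Tlr1 window and the Tlr13 window held none of the 4 motifs. A match describes letters only, and one was present both in Tlr2, which differed 2.34-fold between EAE and naive, and in Tlr3, which differed 1.21-fold.

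Iguratimod was next compared with EAE alone. Tlr1, Tlr9, Tlr13, Unc93b1 and Myd88 had both EAE IGU arrays below both EAE arrays, which makes 5 of 10, against 18.9% of all genes tested, and 0 of 10 had both above, against 14.9%. After a further quantile normalization the states did not overlap for 3 of 10, counted in either direction. None of the 10 passed limma over all genes, nor did any other gene (0% called), and 3 of the 10 had an unadjusted p under 0.05, against 8.51% of all genes. The EAE arrays enter this comparison and the previous one with opposite signs, so they are not independent.

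The size of this difference was unlike between the genotypes for Tlr1. It lay at 11.42 in icKO EAE IGU and 10.03 in FL EAE IGU, against 11.69 in icKO EAE and 11.67 in FL EAE. The control array with iguratimod was the lowest of the 8, below both naive arrays, while the icKO array was near its EAE level. The drug difference was -0.27 in icKO and -1.64 in control. The difference between them was 1.37 ± 0.34 (limma unadjusted p = 0.018, adjusted p = 0.588), in a fit where EAE IGU and EAE each have their own genotype effect and 1 residual degree of freedom is left. That fit called 0 of all genes tested for this difference, with 1529 genes at an unadjusted p under 0.05.

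Tlr2 and Tlr9 had the same order of arrays under the drug. Tlr2 lay at 9.77 in icKO EAE IGU and 8.77 in FL EAE IGU, and Tlr9 at 11.42 in icKO EAE IGU and 10.51 in FL EAE IGU. Relative to naive, this was -0.04 for Tlr2 and -0.22 for Tlr9 in control, and 1.11 and 0.37 in icKO. Set against naive, the change was larger in icKO by 1.59 ± 0.26 for Tlr1 (limma unadjusted p = 0.00333, adjusted p = 0.630) and by 1.15 ± 0.31 for Tlr2 (limma unadjusted p = 0.0213, adjusted p = 0.630). Neither passed over all genes. In each fit of this kind, the spread comes from the prior and from how far apart the genotype differences of the remaining states lie. Here those states are EAE and EAE p50, so spread on the arrays compared does not enter the SE. Tlr13 was lower with iguratimod in both genotypes, at 11.88 in icKO and 11.60 in control, against EAE values of 12.25 and 12.34 in the same order. Tlr4, Cd14, Tlr3 and Tlr7 gave average drug differences between -0.04 and 0.16, but these averages join changes of opposite sign. Cd14 differed by -0.31 in icKO and 0.41 in control, a gap of -0.72 ± 0.43 (limma adjusted p = 0.665). Tlr7 differed by 0.57 in icKO and -0.24 in control, a gap of 0.81 ± 0.47 (limma adjusted p = 0.662). Against EAE, Tlr1 and Tlr9 differed at least 2-fold in control, as 2.67% of all genes did, and 0 of the 10 in icKO, where 2.2% of all genes did. Against naive it was 0 of the 10 in control (3.73% of all genes) and Tlr1 and Tlr2 in icKO (2.82%).

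Over both genotypes, EAE IGU arrays were above both naive arrays for 2 of 10 genes, Tlr3 and Myd88, against 20.7% of all genes tested, and below both for 0 of 10, against 15.1%. Myd88 lay at 9.11 in icKO EAE IGU and 9.29 in FL EAE IGU, between its naive and EAE levels. Its difference from naive was 0.30 ± 0.13 (limma adjusted p = 0.495). In this comparison limma called 0.00548% of genes and 0 of the 10, and 0 of the 10 had an unadjusted p under 0.05.

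In EAE p50, 6 of 10 genes had both arrays above both naive arrays (Tlr1, Tlr2, Tlr9, Tlr13, Unc93b1 and Myd88), against 31.6% of all genes tested, and 0 of 10 had both below, against 26.9%. None of the 10 passed limma over all genes, which called 0.751%, and 6 of the 10 had an unadjusted p under 0.05, against 20.5% of all genes. Tlr1 lay at 11.74 in icKO EAE p50 and 11.50 in F/F EAE p50, near the EAE arrays, and 1.26 ± 0.37 above naive (limma adjusted p = 0.151, or 0.0461 without both EAE IGU arrays, and at least 0.116 under the settings that keep both). Tlr9 lay at 11.65 in icKO EAE p50 and 11.60 in F/F EAE p50, 0.74 ± 0.23 above naive (limma adjusted p = 0.157). Both genes had nearly equal levels in EAE p50 and EAE, with differences of -0.06 ± 0.37 and 0.04 ± 0.23. At least 2-fold above naive were Tlr1 in icKO (1.48, with 4.61% of all genes past that fold) and Tlr1 and Tlr13 in control (1.04 and 1.38, with 5.34% of all genes).

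In the endosomal arm, Unc93b1 and Tlr13 both had their own highest levels in this state. Unc93b1 lay at 12.87 in icKO EAE p50 and 12.93 in F/F EAE p50, above all other arrays, of which the highest was FL EAE at 12.45. The difference was 0.90 ± 0.16 against naive (limma adjusted p = 0.0705) and 0.60 ± 0.16 against EAE (limma adjusted p = 0.115). Tlr13 lay at 12.39 in icKO EAE p50 and 12.65 in F/F EAE p50, 0.90 ± 0.24 above naive (limma adjusted p = 0.127). Tlr13 and Tlr7 lie on the X chromosome. Tlr7 lay at 15.04 in icKO EAE p50 and 15.41 in F/F EAE p50, inside the range of 14.83 to 15.63 on the other 6 arrays.

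Between EAE p50 and EAE, Cd14, Unc93b1 and Tlr13 had both EAE p50 arrays above both EAE arrays (3 of 10, against 26.4% of all genes tested), and Tlr2 had both below (1 of 10, against 31%). Limma called 2.71% of all genes and 0 of the 10, with 2 of the 10 at an unadjusted p under 0.05, against 19.5% of all genes. At least 2-fold differences were found for 0 of the 10 in icKO (7.37% of all genes) and 0 in control (5.2%). Cd14 lay at 10.66 in icKO EAE p50 and 10.45 in F/F EAE p50, a difference of 0.68 ± 0.24 from EAE (limma adjusted p = 0.190). A list of stress genes induced by cell isolation was higher in the same comparison for 10 of 10 tested genes, with a median of 1.39, and Fosb, Jun and Hspa1a passed limma. Their part in the Cd14 value was not tested. Tlr2 lay at 9.58 in icKO EAE p50 and 9.29 in F/F EAE p50, between its naive and EAE levels. Its difference from EAE was -0.53 ± 0.28 and from naive 0.70 ± 0.28 (limma adjusted p = 0.365 and 0.234). The contrast with Tlr1, which lay near its EAE level in this state, was not tested.

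Leukocytes of the blood also carry these receptors, and their markers varied on the same arrays. The median level of 10 neutrophil markers was 10.67 in icKO EAE and 14.42 in FL EAE, against 8.94 in icKO naive and 9.92 in FL naive. Their summed intensity was between 103305 and 900220 in EAE, against 6364 to 25709 in naive, and 9 of the 10 passed the filter. For the genes above naive on both EAE arrays, icKO minus control in EAE was 0.71 (Tlr2), 0.14 (Tlr9) and 0.02 (Tlr1). It was -0.09 for Tlr13, -0.26 for Myd88, -0.3 for Unc93b1 and -0.32 for Tlr3. For 8 measured monocyte markers, of which 7 passed the filter, the median was 10.38 in icKO EAE and 9.72 in FL EAE, against 8.06 in icKO naive and 8.27 in FL naive, and the summed intensity was 26766 to 27713, against 2574 to 3274. The microglia markers also differed between states. On average 1 of 9 was higher in EAE than in naive, with a median difference of -0.43 and 0 passing limma, and 8 of 9 were higher in EAE p50 than in EAE, with a median of 0.88. Tmem119, a marker of resident microglia, was the 1 of them that passed there (0.90 ± 0.16, limma adjusted p = 0.0482). In bulk RNA, fewer cells of a type and less RNA per cell cannot be told apart, and the part of these cells in the EAE values was not tested.

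On the EAE p50 arrays the monocyte median was 8.40 in icKO and 8.24 in control, and the neutrophil median 9.30 in icKO and 8.99 in control, beside the naive medians of 8.06 and 8.27 for monocytes and of 8.94 and 9.92 for neutrophils. On average 4 of 7 tested monocyte markers were higher in EAE p50 than in naive, with a median difference of 0.17. The differences ran from -0.09 (Ly6c2) to 0.99 ± 0.38 (Ms4a4c) and 1.41 ± 0.62 (Fn1). Of the 7 genes above naive on both EAE arrays, Tlr2 differed in EAE p50 from the EAE array of the same genotype by -0.74 in icKO and -0.32 in control. The other 6 differed by between -0.17 (Tlr1 in control) and 0.72 (Unc93b1 in icKO). The part of these cells in the EAE p50 values was not tested. Under iguratimod the markers followed the genotypes in the same order as Tlr1, Tlr2 and Tlr9. The monocyte median was 9.65 in icKO EAE IGU and 8.43 in FL EAE IGU, and the neutrophil median 11.48 in icKO EAE IGU and 9.59 in FL EAE IGU. Their part in the drug values was not tested.

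**Figure D3:**
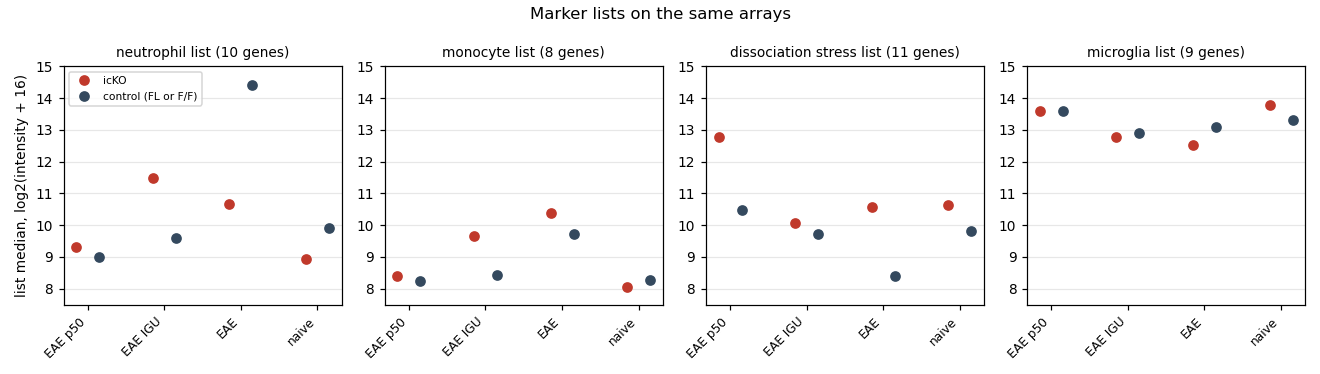
Median level of 4 marker lists on each array, as log2(intensity + 16), by state, with icKO in red and control in dark blue. The neutrophil list spans 8.94 to 14.42 and the monocyte list 8.06 to 10.38, and the microglia list 12.53 to 13.78, lowest on the icKO EAE array and highest on the icKO naive array.

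Across the 4 states, icKO was compared with control. Cd14 and Tlr9 were higher in icKO in all 4 states, 2 of 10 genes, against 4.9% of all genes tested, and 0 of 10 were lower in all 4, against 7.92%. Limma called 0 of 18234 genes (0%), with 1 of the 10 (Cd14) at an unadjusted p under 0.05, against 5.43% of all genes. Cd14 was higher in icKO by 0.22 in EAE p50, 0.05 in EAE IGU, 0.77 in EAE and 0.88 in naive, an average of 0.48 ± 0.17 (limma adjusted p = 0.882). The difference was largest on the naive and EAE pairs and smallest under iguratimod. For Tlr9 the differences were 0.05 in EAE p50, 0.91 in EAE IGU, 0.14 in EAE and 0.32 in naive, an average of 0.36 ± 0.16 (limma adjusted p = 0.882).

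Cd14 is induced within hours when microglia or macrophages are stimulated, and the list of isolation stress genes, 11 of them measured, was read beside it. The median of that list was 12.77 in icKO and 10.47 in control for EAE p50, and 10.08 in icKO and 9.73 in control for EAE IGU. It was 10.57 in icKO and 8.40 in control for EAE, and 10.64 in icKO and 9.81 in control for naive. The summed intensity of the list was 117476 to 431515 on icKO arrays and 30552 to 272997 on control arrays, and 10 of its genes passed the filter. The list and Cd14 were both higher in icKO in every state, both had their smallest genotype difference under iguratimod, and both were lowest on the FL EAE array. In the other states the comparison depended on how the list was summarised. By its median, which was the value of Atf3 on both EAE p50 arrays, the list had its largest genotype difference in EAE p50, where Cd14 differed by 0.22. By summed intensity the difference was largest in EAE, at 204345 in icKO and 30552 in control, against 431515 and 272997 in EAE p50. Fos lay at 11.77 in icKO EAE and 8.40 in FL EAE, against 12.90 and 11.34 in EAE p50. Cd14 had its largest difference in naive, where that of the list was smaller than in EAE by either summary. The part of isolation stress in the Cd14 values was not tested.

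Within single states, 2 of 10 genes differed at least 2-fold between the genotypes under iguratimod, against 3.21% of all genes tested. These were Tlr1, higher in icKO by 1.39, and Tlr2, higher in icKO by 1.0. In EAE p50 (0.378% of all genes), in EAE (1.84%) and in naive (1.9%) 0 of the 10 did. The surface arm had a median genotype difference of 0.41 over the states and the endosomal arm one of -0.04, beside -0.02 for all genes tested. After quantile scaling these medians were 0.45 and 0.11, so the sign of the endosomal one turned. The surface value rested on Tlr1, Tlr2 and Cd14, and Tlr4 gave -0.05 ± 0.12. Without the FL EAE IGU array, the genotype difference was 0.02 for Tlr1 and 0.28 for Tlr2, whereas that of Cd14 was 0.62. Tlr1 averaged 0.36 ± 0.26 and Tlr2 0.46 ± 0.20 (limma adjusted p = 0.912 and 0.882), and both were lower in icKO in the naive pair, by -0.21 and -0.15.

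**Figure D4:**
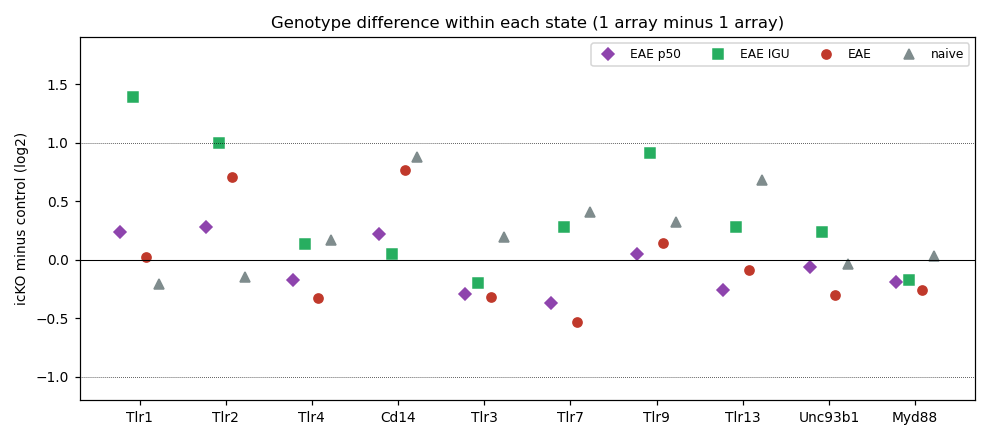
Difference between the icKO and the control array within each state, in log2 units on the vertical axis, for each gene. Each symbol is 1 array minus 1 array, and dotted lines mark 2-fold. Under iguratimod Tlr1 (1.39), Tlr2 (1.0) and Tlr9 (0.91) lie highest, while Cd14 is highest in naive (0.88) and EAE (0.77).

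Several genes had genotype differences of opposite sign among states. Tlr7 was lower in icKO by -0.37 in EAE p50 and by -0.53 in EAE, and higher by 0.28 in EAE IGU and by 0.41 in naive. Its change from naive to EAE was -0.80 in icKO and 0.14 in control, a difference of -0.94 ± 0.44 (limma unadjusted p = 0.0797, adjusted p = 0.825). Tlr13 was higher in icKO in naive by 0.68 and lower in EAE p50 by -0.26. Myd88 and Tlr3 were lower in icKO in each of the 3 EAE states and not in naive, with averages over the 4 states of -0.15 ± 0.09 and -0.15 ± 0.12 (limma adjusted p = 0.894 and 0.912). Over 5 fits of such differences in state changes, limma called 0 of the 10 and 0 of all genes tested, with 463 to 1529 genes at an unadjusted p under 0.05.

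The rest of the pathway was read from lists that covered other receptors, co-receptors, adaptors, kinases, inhibitors, transcription factors, ligands and targets. Of 53 listed genes 48 were measured and 38 passed the filter. In EAE against naive, 30 of the 38 were higher on average, with a median of 0.18, beside 0.01 for all genes tested. Past the test rose 3 of them, against 3.77% of all genes called in either direction. Cd180, a surface protein related to Tlr4 that modulates its signalling, rose by 0.93 ± 0.13 (limma adjusted p = 0.0288). It lay at 13.66 in icKO EAE and 13.19 in FL EAE, against 12.79 in icKO naive and 12.19 in FL naive. Irf7, the transcription factor that carries endosomal receptor signals to interferon genes, rose by 0.89 ± 0.15 (limma adjusted p = 0.0411), and the interferon-induced chemokine gene Cxcl10 rose by 1.75 ± 0.33 (limma adjusted p = 0.05). In the other 5 comparisons 0 of the 38 passed.

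Cd36, a scavenger receptor that works with Tlr2, lay at 10.31 in icKO EAE and 9.27 in FL EAE, against 7.98 in icKO naive and 8.06 in FL naive (1.77 ± 0.42, limma adjusted p = 0.0869). Under iguratimod it lay at 9.53 in icKO and 8.06 in control, so the control array was at the naive level, as for Tlr2, whereas for Tlr1 it lay below both naive arrays. In EAE p50 it differed from EAE by -1.08 ± 0.42 (limma adjusted p = 0.236). Pik3ap1, an adaptor that links Toll-like receptors to phosphoinositide 3-kinase, gave 0.99 ± 0.23 in EAE (limma adjusted p = 0.0869) and 1.21 ± 0.23 in EAE p50 (limma adjusted p = 0.0799), both against naive. The cytokine gene Il1b gave 2.30 ± 0.50 (limma adjusted p = 0.0725). Among receptors outside the 10, Tlr5, which binds flagellin, gave -0.52 ± 0.18, Tlr6, the alternative partner of Tlr2, gave 0.36 ± 0.15, and Tlr8 did not pass the filter. The ligand genes S100a8 and S100a9, which are also neutrophil markers, gave 5.70 ± 1.38 and 4.13 ± 1.17 (limma adjusted p = 0.0938 and 0.132). The receptor genes Tlr11 and Tlr12, the adaptor genes Ticam1 and Ticam2, the kinase complex and ubiquitin ligase genes Map3k7, Tab1, Tab3 and Peli1, the inhibitor genes Irak3 and Tollip and the transcription factor genes Irf3 and Irf5 all lay between -0.17 (Tab1) and 0.24 (Ticam2). Between genotypes, Tnfaip3, a deubiquitinase that restrains the pathway, was higher in icKO by 0.67 ± 0.16 on average (limma adjusted p = 0.856). On average 27 of the 38 genes were higher in icKO, with a median of 0.05, beside -0.02 for all genes tested. The share of all genes that were higher in icKO was not counted.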

How the data were processed

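The deposited table gives 65956 probe sets on 8 arrays as intensities on a linear scale. Per the labels' protocols, biotin-labelled material was made from total RNA with a pico whole-transcript kit. Affymetrix Expression Console is the tool credited in the submitters' processing notes. The steps by which the authors summarised and normalized the intensity values are not stated there, and detection calls were not used. After symbols were updated through RefSeq (GRCm38.p6), 31258 probe sets named 1 gene. Those naming several (1492) and those without a name here (33206) were not analysed. A gene was represented by its brightest probe set and analysed as log2(intensity + 16), so that changes of dim genes are understated. Tested genes exceeded the 50th percentile of the named probe sets of an array at least once.

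Because each group is 1 array, state and genotype were fitted additively over all arrays with limma 3.58.1 (lmFit and eBayes, R 4.3.3). This leaves 3 residual degrees of freedom, with an eBayes prior SD of 0.16, and p-values were adjusted by Benjamini-Hochberg over 18234 genes. They reflect these few arrays only. The spread behind them and the SEs of this model is what state and genotype, added together, leave unexplained. A genotype difference that varies by state is counted in that spread. Scatter between replicates was not measured, because no group holds any. The fit was tested on simulated data. Single pairs of arrays were compared as values. Named genes were all 10 members and, from the pathway lists, genes that passed or were among the 2 largest differences of a list in EAE or between genotypes. Members, lists and comparisons were chosen with earlier results of these data known. The closing section gives the alternatives tried. The deleted gene is not reported here.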

Additional observations from a re-analysis of the deposited data

How the results depend on the processing

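The 60 differences (10 genes in 6 comparisons) were refitted under 980 combinations with no filter, a stricter filter, pseudocount 1, quantile or median scaling, mean probe sets, a trended robust prior, or arrays left out. Of these, 924 kept direction and side of the threshold, 6 became calls and 50 changed sign, all 50 for differences that were not called. Many refits could not change a sign. The filter, the prior, the mean of probe sets and arrays of states outside a comparison leave its difference as it was. The 6 were Tlr1 in EAE and in EAE p50 against naive without the FL EAE IGU, the icKO EAE IGU or both arrays, so that 1 gene was called in each of these in place of 0 (without 1 array, 0 to 1). Leaving out either or both EAE IGU arrays gives in effect the same fit, so these calls are not independent of each other. Non-overlapping genes under quantile scaling were 5 for EAE against naive (7 as reported), 3 for EAE IGU against EAE (5) and 1 for EAE IGU against naive (2). At 1.5-fold, single pairs of arrays gave 7 genotype and 28 state differences. Changed signs outside left-out arrays were Cd14 (-0.01) in EAE IGU against EAE and Tlr4 (0.04) in EAE against naive after median scaling, and after quantile scaling Tlr1 (0.12) and Tlr3 (0.12) in EAE p50 against EAE, Tlr3 (0.01) in EAE IGU against EAE, and Tlr7 (0.11) and Unc93b1 (0.04) between genotypes. Without both EAE p50 arrays Tlr7 gave 0.05 between genotypes. The cause was not tested.

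Leaving out single arrays, the ranges that crossed 0 were as follows. For genotype they were -0.02 to 0.29 for Tlr13, -0.13 to 0.04 for Tlr4, -0.21 to 0.11 for Tlr7 and -0.13 to 0.05 for Unc93b1. For EAE against naive they were -0.50 to 0.04 for Cd14 and -0.22 to 0.16 for Tlr4. For EAE IGU against EAE they were -0.24 to 0.34 for Cd14, -0.16 to 0.07 for Tlr3, -0.21 to 0.17 for Tlr4 and -0.15 to 0.48 for Tlr7. For EAE IGU against naive they were -0.47 to 0.11 for Cd14, -0.31 to 1.05 for Tlr1, -0.23 to 0.48 for Tlr13, -0.20 to 0.09 for Tlr4, -0.47 to 0.15 for Tlr7, -0.30 to 0.45 for Tlr9 and -0.19 to 0.19 for Unc93b1. For EAE p50 against naive they were -0.09 to 0.37 for Tlr3, -0.03 to 0.27 for Tlr4 and -0.50 to 0.11 for Tlr7. For EAE p50 against EAE they were -0.29 to 0.16 for Tlr1, -0.06 to 0.50 for Tlr13, -0.03 to 0.34 for Tlr4, -0.19 to 0.45 for Tlr7 and -0.17 to 0.24 for Tlr9.

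The number of genes called among all tested ran from 0 (without any one naive or EAE array) to 877 (stricter filter) for EAE against naive, where it was 688 as reported and 268 after quantile scaling. It ran from 50 to 414 for EAE p50 against naive (137 as reported) and from 67 to 624 for EAE p50 against EAE (494 as reported), and from 0 to 3 for EAE IGU against naive (1 as reported). Where the change in EAE was compared between genotypes, it was 14 with the stricter filter and 0 as reported. No paired analysis was possible because each group holds 1 array and the labels give no replicate numbers; genotype is already a term of every fit.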
